A study of Mus musculus with 4 samples.

Results

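The genes examined here encode the respiratory chain, the 4 membrane complexes that pass electrons to oxygen, and the ATP synthase that works with them (complex V). They were taken by name from a table of 24637 genes measured in mouse ESC-derived cardiac cultures: names of the mitochondrial genome starting with mt-Nd, mt-Co, mt-Cytb or mt-Atp, and nuclear names starting with Nduf, Sdha to Sdhd, Uqcr, Cox4 to Cox8 or Atp5, without pseudogene names and assembly factors. This gave 99 members, 12 from the mitochondrial genome (6 of complex I, 1 of complex III, 3 of complex IV and 2 of complex V) and 87 from the nucleus (38 of complex I, 4 of complex II, 8 of complex III, 19 of complex IV and 18 of complex V). By name, 5 of the nuclear members came along whose product is no established subunit, namely Cox4nb, Atp5s, Atp5sl, Ndufa4l2 and Cox7a2l. Atp5l2, which the annotation gives as a pseudogene, has no such mark in its name and stayed among the 87, at 0 to 1.11 counts and not tested.

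Polyadenylated RNA was sequenced from 2 WT (Taf4+/+) and 2 Taf4a-/- cultures of ESC lines derived from blastocysts of heterozygous crosses. Taf4a encodes Taf4, a subunit of the general transcription factor TFIID. All lines were grown on feeder fibroblasts, then for 5 days as embryoid bodies in 20% serum and for 9 more days on gelatin, so the groups differ in the label of the Taf4a genotype and in the line. The study describes its RNA sequencing as replicates from 2 independent lines of each genotype, while the labels here give replicate numbers only. The 2 libraries of a genotype are therefore taken to be 2 lines. The cultures were not sorted, and in RNA from a mixture fewer cells of a type and less RNA per cell cannot be told apart.

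The libraries held 21732746 to 27733034 reads on genes, and the deposited values are read counts divided by 1 size factor per library (normalized read counts below). The count over the whole Taf4a gene was 889 and 678 in WT and 1722 and 1799 in the libraries labelled Taf4a-/-. It was thus higher under that label, but the null allele lacks only part of the gene. This count does not show whether the deleted part is transcribed, so it cannot check the label. For this reason the second group is called by its label throughout, and every direction below rests on that label. Cardiomyocyte markers were present in WT, except Tnnc1 (0.877 and 0 counts), and 14 of the 16 tested were lower in the libraries labelled Taf4a-/-, where their summed level was 13278 and 13213 counts against 47981 and 46868 in WT. Summed markers of fibroblasts were at 48111 and 60322 against 429119.9 and 596378 counts, those of visceral endoderm and liver at 708 and 604 against 82534 and 66328, and those of macrophages at 47.0 and 90.7 against 9369 and 10588. Pluripotency markers were higher for 7 of 8, with a sum of 13590.3 and 15288 against 4169 and 2494 counts. Their part in the results below was not tested.

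Complex I oxidizes NADH, complex II oxidizes succinate, complex III passes electrons from ubiquinol to cytochrome c and complex IV reduces oxygen, and the proton gradient that complexes I, III and IV build drives ATP synthesis by complex V. The mitochondrial genome encodes a few core proteins of complexes I, III, IV and V and none of complex II, and all other subunits are encoded in the nucleus and imported. The mitochondrial genes are transcribed by a dedicated polymerase as long precursors from both strands, which are cut at the tRNAs, and heart muscle is rich in mitochondria and uses muscle-type isoforms of some complex IV subunits.

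Genes were tested with limma, with a Benjamini-Hochberg adjusted p under 0.05 as the threshold for a call, over the 16926 genes whose normalized counts averaged 10 or more. Of these, 28.6% were called, 11.3% higher and 17.3% lower in the libraries labelled Taf4a-/-, which is 1906 and 2928 genes; with quantile normalization the split was 2625 higher and 2459 lower, and the median over all genes was 0.11 on the log2 scale instead of -0.01. Of the members, 7 of the 12 mitochondrial and 83 of the 87 nuclear ones passed the filter. Median log2 fold changes lay on opposite sides of 0, at 0.90 for the 7 mitochondrial and -0.19 for the 83 nuclear genes. Of the mitochondrial genes 4 were called higher and 0 lower, and of the nuclear genes 12 were called lower and 0 higher. The nuclear share called lower, 14.5%, was under the 17.3% of all genes. None of the 83 nuclear genes was called higher by limma, or by voom on the recovered reads, against 11.3% of all genes. At an unadjusted p under 0.05, 25 nuclear members were lower and 2 higher (30.1% and 2.41%, against 23.7% and 18.8% of all genes), and 6 mitochondrial members were higher and 0 lower. The log2 fold change lay below 0 in 62 of the 83 nuclear members, or 74.7%, against 50.8% of all genes tested.

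**Figure D1:**
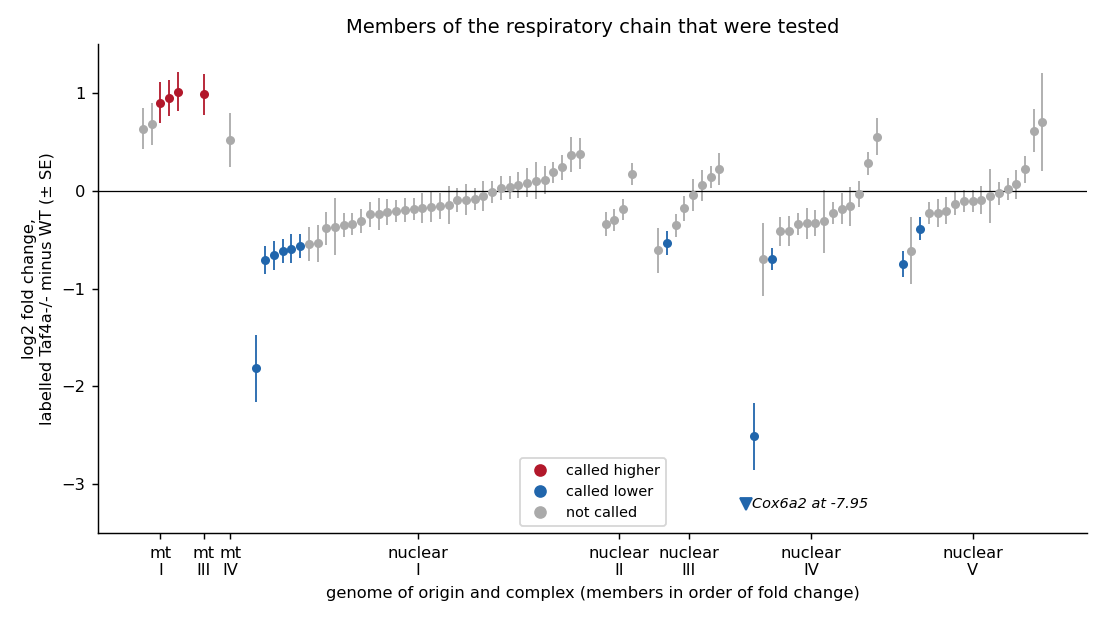
Log2 fold change with its standard error (libraries labelled Taf4a-/- minus WT, on log2 of the normalized count plus 1) of the 90 members tested, in order of size within each genome of origin and complex. All 7 mitochondrial genes lie above 0, and the nuclear genes lie mostly between -0.75 and 0.70, with Ndufa4l2 at -1.81, Cox4i2 at -2.51 and Cox6a2, drawn as a triangle outside the scale, at -7.95.

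Added over all 12 genes, the mitochondrial members made up 0.797% and 1.09% of the normalized counts in WT and 1.60% and 1.64% in the libraries labelled Taf4a-/-. The groups did not overlap, the ratio of their means was 1.72, and the exact two-sided permutation test gave p = 0.333, the smallest value that 2 against 2 libraries allow. The 87 nuclear members together made up 0.818% and 0.803% in WT and 0.757% and 0.744% in the other group. Per 100 counts of nuclear members, this came to 97.4 and 136 mitochondrial counts in WT and 212 and 221 in the libraries labelled Taf4a-/-, a ratio of 1.85 (exact permutation p = 0.333). The WT libraries were apart from each other in the same measure, WT replicate 2 being 1.40 times WT replicate 1. Without WT replicate 2 the ratio of the shares of all counts was 2.04, and without WT replicate 1 it was 1.49.

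Complex I has the largest mitochondrial contribution, the membrane subunits through which protons are thought to pass. The gene mt-Nd1 had 50684 and 66848 counts in WT and 90318 and 96947 in the libraries labelled Taf4a-/-. For mt-Nd2 the values were 18506 and 26389 against 32315 and 36413. Both groups were apart for each gene, but neither was called, with log2 fold changes of 0.68 ± 0.22 (SE, limma adjusted p = 0.0596) and 0.63 ± 0.21 (adjusted p = 0.0658). The gene mt-Nd4 rose from 9767 and 14480.2 to 20899 and 23591 counts, a log2 fold change of 0.90 ± 0.21 (limma adjusted p = 0.0262). The gene mt-Nd5 rose from 21416 and 29963 to 50491 and 51852 counts, by 1.01 ± 0.20 (limma adjusted p = 0.0172). The gene mt-Nd6, which alone lies on the other strand, rose from 6389 and 9099 to 14501 and 14942 counts, by 0.95 ± 0.19 (limma adjusted p = 0.0162). The library kit does not mark strand, so reads of mt-Nd6 cannot be told apart from reads of transcripts that cover it on the opposite strand.

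The only mitochondrial gene of complex III, mt-Cytb, encodes cytochrome b. It had 28502 and 38716 counts in WT and 62308 and 69636 in the libraries labelled Taf4a-/-, and was called higher by 0.99 ± 0.21 on the log2 scale (limma adjusted p = 0.0199). The gene mt-Co1, the catalytic subunit of complex IV, had 58439.8 and 93112 against 109809.8 and 101722 counts. Here WT replicate 2 was near the other group, and the log2 fold change of 0.52 ± 0.27 was not called (limma adjusted p = 0.198). In all 7 genes both libraries labelled Taf4a-/- lay above both WT libraries, which held for 34.5% of all genes tested. WT replicate 2 was above WT replicate 1 in all 7 genes, by a median of 0.51 on the log2 scale, while all genes split almost evenly (51.8% higher in WT replicate 2). The 4 calls depended on single libraries. Without replicate 1 labelled Taf4a-/-, 1 gene (mt-Nd6, adjusted p = 0.0411) was called, without replicate 2 none was (adjusted p of the 4 from 0.0511 for mt-Nd6 to 0.137 for mt-Cytb), without WT replicate 1 the count was 4 and without WT replicate 2 it was 6. The direction was the same in every one of these fits.

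Sorted by their place on the mitochondrial genome, the log2 fold changes of the rRNA and tested protein genes fell into a lower and a higher range. The rRNA genes mt-Rnr1 and mt-Rnr2, which come first and are no members, had 0.35 and 0.34 (limma adjusted p = 0.273 and 0.336), mt-Nd1, mt-Nd2 and mt-Co1 had 0.52 to 0.68, and mt-Nd4, mt-Nd5, mt-Nd6 and mt-Cytb had 0.90 to 1.01. Since this can be read within a library, it does not depend on the size factors. The 4 later genes gave 51.8 and 49.5 counts per 100 counts of the 3 earlier genes in WT and 63.8 and 68.1 in the libraries labelled Taf4a-/-, so the groups were apart by more than the spread within each. The rRNAs gave 9.64 and 11.0 counts per 100 counts of the 7 genes in WT and 8.20 and 7.44 in the other group. The split into earlier and later genes was made after the values were seen, and it carries no test. Of the mitochondrial tRNA and rRNA genes, 10 were tested and 3 were called higher (mt-Ta, mt-Tc and mt-Tl1, by 1.10, 0.91 and 0.86). None was called lower, and over all genes tested 11.3% were called higher and 17.3% lower. The tRNA genes were not placed in the order above. The 3 called had values near those of the 4 later genes, so the split describes the rRNA and protein genes only. The 3 calls depended on single libraries and were lost when either library labelled Taf4a-/- was left out. Counts over these genes do not tell apart the tRNAs and rRNAs from longer precursors of either strand that cover them.

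**Figure D2:**
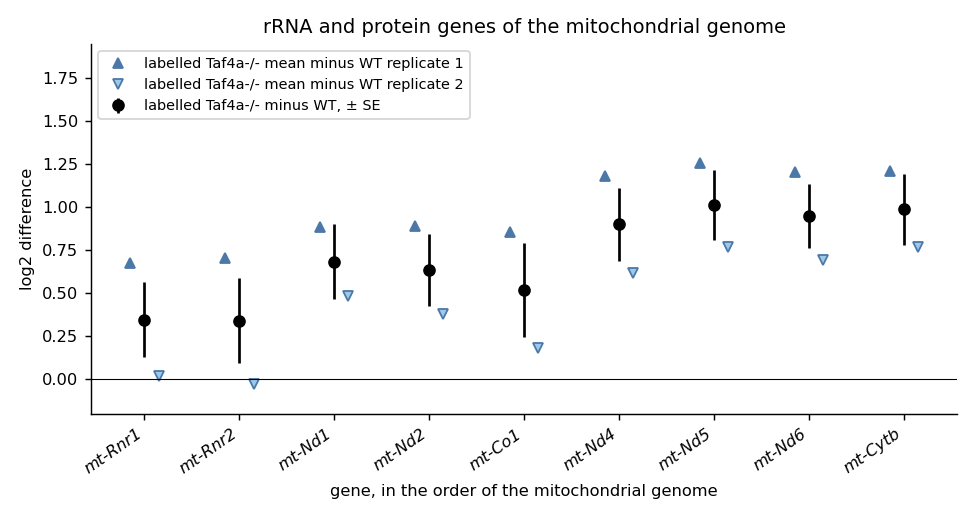
Log2 difference between the libraries labelled Taf4a-/- and WT (black, with standard error) for the rRNA and tested protein genes in the order of the mitochondrial genome, and the same against each WT library alone (triangles). The 4 genes from mt-Nd4 on lie highest against both WT libraries, and the rRNA genes lie at 0.02 and -0.03 against WT replicate 2.

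The other 5 mitochondrial members, mt-Nd3, mt-Co2, mt-Co3, mt-Atp6 and mt-Atp8, were almost without reads in all libraries, at 0 to 13.3 normalized counts, although they lie between mt-Co1 and mt-Nd4 on the same strand. Per kilobase of exon they had a mean of at most 10.5 counts, while the other 7 had at least 12470.4. To see whether reads of these genes could be placed, each gene was cut into all its 50-base windows, and each window was looked up in the whole NCBIM37 genome, the build of the authors' mapping (mm9). Of the windows of mt-Co2, mt-Co3, mt-Atp6 and mt-Atp8, 100% occurred also elsewhere, and of mt-Nd3 99.0%. They match a nuclear copy of this stretch of the mitochondrial genome on the minus strand of chr1:24618374-24622404 without a mismatch in the aligned bases. For mt-Nd3 these are 345 of its 348 bases. The copy also holds mt-Nd4l (a gene not analysed here) and the first 876 bases of mt-Nd4. The pair of sequences below shows a stretch of mt-Co2 and the same stretch of its copy. No base differs, so a read from here fits both places. For contrast, a stretch of mt-Cytb, whose counts were high, is set beside the nearest copy on chromosome 4, which is 92.9% identical over the gene, with the differing bases in capitals.
mt-Co2, chrM:7113-7172, plus strand: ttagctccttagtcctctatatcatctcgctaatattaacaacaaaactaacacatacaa
nuclear copy, chr1:24622245-24622304, minus strand: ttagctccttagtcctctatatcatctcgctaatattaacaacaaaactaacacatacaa
mt-Cytb, chrM:14245-14304, plus strand: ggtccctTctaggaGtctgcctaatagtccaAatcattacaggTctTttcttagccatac
nuclear copy, chr4:79649993-79650052, plus strand: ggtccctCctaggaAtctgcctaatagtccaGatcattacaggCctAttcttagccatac

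Among the 7 genes with high counts, mt-Nd1, mt-Nd6 and mt-Cytb had 0% of windows elsewhere, mt-Nd5 7.61% and mt-Nd2 8.29%. For mt-Co1 it was 51.1%, or 765 windows, of which 430 occur on chromosome 1, and a copy of the whole gene on chromosome 2 is 97.6% identical. For mt-Nd4 it was 62.2%. The windows differ in length from the reads, whose length is not given in the sources used here, and neither is what the counting did with reads that fit several places. The levels of the 5 genes, and the mitochondrial share above, are therefore those of the table, not of the RNA.

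**Figure D3:**
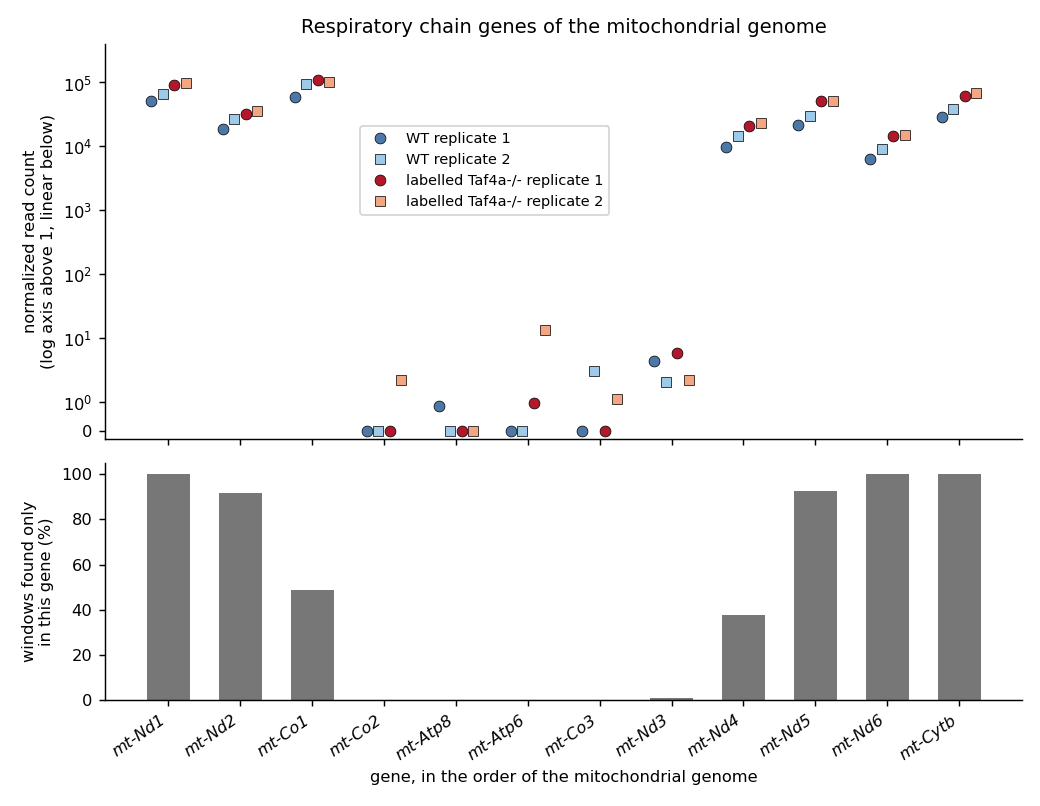
Top, normalized read count of each of the 12 mitochondrial members in the 4 libraries, in genome order, and bottom, the percentage of its 50-base windows found nowhere else in the NCBIM37 genome. The 5 genes at 0 to 13.3 counts have 0 to 1.00% of such windows. In the 7 others both libraries labelled Taf4a-/- lie above both WT libraries, as in 34.5% of all genes tested.

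Of the nuclear genes, the 38 of complex I lay around a median of -0.18 on the log2 scale. Of these, 6 were called lower (15.8%, against 17.3% of all genes tested) and 0 higher (against 11.3%). Leaving aside Ndufa4l2, the 5 others had fold changes of 1.48 to 1.64. Ndufa6, an accessory subunit of the LYR family that holds the mitochondrial acyl carrier protein, had 1859.5 and 2321 counts in WT and 1252 and 1287 in the libraries labelled Taf4a-/- (log2 fold change -0.71 ± 0.14, limma adjusted p = 0.0178). Ndufs6, a zinc-binding accessory subunit, had 565 and 596 against 378 and 356 counts (-0.66 ± 0.15, limma adjusted p = 0.0247). Ndufa13, a membrane-spanning accessory subunit, had 1523 and 1701 against 1028 and 1071 counts (-0.62 ± 0.12, limma adjusted p = 0.0175), with 30.2% of its exon bases shared with Tssk6 in the annotation. In each of the 3 both libraries labelled Taf4a-/- lay below both WT libraries, as they did in 36.6% of all genes tested. Ndufs8, a core subunit that carries iron-sulfur clusters, had 1065 and 1043 against 765 and 640.4 counts (-0.59 ± 0.14, limma adjusted p = 0.0298). Ndufa2, an accessory subunit with a thioredoxin fold, had 1577 and 1761 against 1107 and 1146 counts (-0.56 ± 0.12, limma adjusted p = 0.0219). Ndufa4l2, a relative of Ndufa4 known as a hypoxia target, had 256.0 and 482 against 87.1 and 113 counts, a log2 fold change of -1.81 ± 0.34 (limma adjusted p = 0.0146), or 3.52-fold lower.

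These calls were close to the threshold. Without replicate 1 or replicate 2 labelled Taf4a-/-, the calls of Ndufa6, Ndufs6, Ndufa13, Ndufs8 and Ndufa2 were lost, with adjusted p of 0.0637 to 0.222. Without WT replicate 2, Ndufa6 was called (adjusted p = 0.0475) and the other 5 were not (0.0526 to 0.0843), and without WT replicate 1 only Ndufs8 lost its call (0.0657). Of the flavoprotein part, Ndufv1, the NADH-binding subunit, had 2546 and 2163 against 2715 and 2840.2 counts (0.24 ± 0.13, limma adjusted p = 0.200). Ndufv2 had -0.09, and Ndufv3, whose WT libraries differed most among these, had 1938 and 2763 against 1487 and 1709 counts (-0.54 ± 0.19, limma adjusted p = 0.0817). The highest fold changes of the complex were those of Ndufab1, the acyl carrier protein, and Ndufa1, at 0.38 and 0.37 (limma adjusted p = 0.126 and 0.174). Ndufa4, named for complex I and now counted with complex IV, had 1770.1 and 2308 against 1812 and 1798 counts, so the groups overlapped (-0.16 ± 0.15, limma adjusted p = 0.457).

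Complex II, which has no mitochondrial gene, showed 0 of 4 genes called in either direction by limma or voom, with 2 lower and 0 higher at an unadjusted p under 0.05. Over all genes tested, limma called 28.6% in either direction. Sdha, the flavoprotein, had 6391 and 6061 counts in WT and 6814 and 7204 in the libraries labelled Taf4a-/- (0.17 ± 0.11, limma adjusted p = 0.299). Sdhb, the iron-sulfur protein, had 2536 and 2611 against 2221 and 2290.5 (-0.19 ± 0.11, limma adjusted p = 0.233). The membrane anchors Sdhc (2757 and 2771 against 2152 and 2356) and Sdhd (3488 and 3959 against 3059 and 2809) had -0.30 ± 0.11 and -0.34 ± 0.12 (limma adjusted p = 0.1002 and 0.0862). The groups were apart for each of the 4, with Sdha alone higher in the libraries labelled Taf4a-/-. Such separation was common: of all genes tested, 36.6% had both of these libraries below both WT libraries and 34.5% had both above. Without WT replicate 1, Sdhd was called lower (adjusted p = 0.0443).

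In complex III, 1 of 8 nuclear genes was called lower (12.5%, against 17.3% of all genes tested) and 0 higher (against 11.3%). The median was -0.11 on the log2 scale. Uqcrh, the hinge protein that binds cytochrome c1, had 2215 and 2514 counts in WT and 1659 and 1597 in the libraries labelled Taf4a-/- (-0.54 ± 0.12, limma adjusted p = 0.0245). This call was lost without WT replicate 2 or either library labelled Taf4a-/- (adjusted p = 0.0581 to 0.162). The core proteins Uqcrc1 and Uqcrc2 had 0.14 and -0.18, and the Rieske protein Uqcrfs1, which hands electrons to cytochrome c1, had 2854 and 3085 against 2449 and 2198 counts (-0.35 ± 0.12, limma adjusted p = 0.0725). Uqcrb had the lowest fold change of the complex at -0.61 ± 0.23 (limma adjusted p = 0.0984), with 36.2% of its windows found elsewhere, and Uqcr11 the highest at 0.22. So the only mitochondrial subunit of this complex was called higher, and the 8 nuclear ones lay at or below 0.22.

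Complex IV had 19 nuclear genes, of which 16 were tested, and the median of -0.33 was the lowest of the complexes. Of the 16, 3 were called lower (18.8%, against 17.3% of all genes tested) and 0 higher (against 11.3%). Complex IV holds the muscle-type isoforms. Cox6a2, the isoform of heart and skeletal muscle, lies at chr7:135348950-135349880 in NCBIM37, on the minus strand. In the annotation 10.0% of its exon bases are shared with Itgad, and the part of such reads in its count was not tested. Cox6a2 had 203 and 297 counts in WT and 0 in both libraries labelled Taf4a-/-. It was thus at least 80.03-fold lower against a floor of 3 reads per library, and the fitted log2 fold change was -7.95 (SE 0.46, limma adjusted p = 0.000705). Its widely expressed partner Cox6a1 had 2614 and 3218 against 2375 and 2013 counts, which was not called (-0.41 ± 0.15, limma adjusted p = 0.0946). Per length, Cox6a2 made up 7.66% and 8.97% of this pair in WT and 0% in both other libraries. A second muscle-type isoform, Cox8b, had 4.38 and 15.6 against 0 and 0 counts and was too low to be tested, at 0.247% and 0.847% of its family per length in WT. The third, Cox7a1, behaved in another way: it had 78.03 and 123 against 83.2 and 74.1 counts, the groups overlapped, and no difference was found (-0.31 ± 0.32, limma adjusted p = 0.487). Its share of the pair with Cox7a2 was 6.87% and 8.45% in WT and 8.40% and 7.85% in the other group. Ckmt2, the muscle-type mitochondrial creatine kinase, which is no member, had 0 and 3.12 counts in WT and 0 in both other libraries. The partners Cox7a2 and Cox8a were at -0.42 ± 0.14 and -0.23 ± 0.11 (limma adjusted p = 0.0766 and 0.166), and without WT replicate 1 Cox7a2 was called lower (adjusted p = 0.0232).

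**Figure D4:**
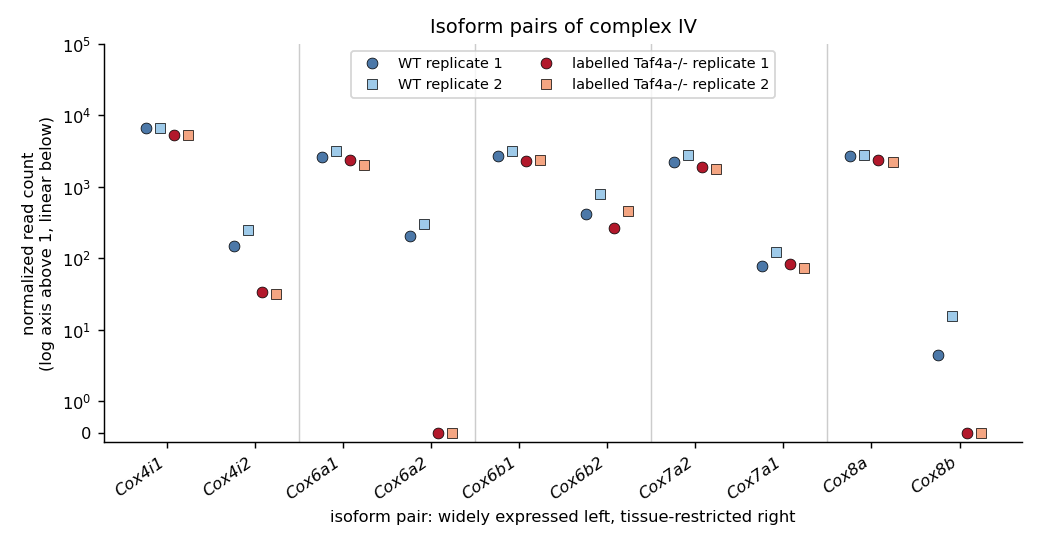
Normalized read count in the 4 libraries for 5 isoform pairs of complex IV, the widely expressed isoform on the left of each pair and the tissue-restricted one on the right. Cox6a2 and Cox8b are at 0 in both libraries labelled Taf4a-/-, Cox4i2 is at 33.3 and 32.1, and Cox7a1 overlaps between the groups.

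Of the isoforms restricted to other tissues, Cox4i2, known from lung and from cells low in oxygen, had 147 and 247 counts in WT and 33.3 and 32.1 in the libraries labelled Taf4a-/-, a log2 fold change of -2.51 ± 0.34 (limma adjusted p = 0.00540), or 5.70-fold lower. Its common partner Cox4i1, the highest of all nuclear members per kilobase of exon with a mean of 8801 counts, had 6743 and 6614 against 5246 and 5301 (-0.34 ± 0.11, limma adjusted p = 0.0625). Cox4i2 and Cox6a2 were the called nuclear members that stayed called in every other setting of the fit that was run. The testis-type isoform Cox6b2 had 414 and 790 against 269 and 458 counts, with overlapping groups (-0.70 ± 0.37, limma adjusted p = 0.204), and Cox7b2 and Cox8c were at 0 to 4.42 counts in all libraries. Cox7a2l, a factor that joins complexes III and IV in supercomplexes, had 2289 and 2364 against 1428 and 1441 counts (-0.70 ± 0.11, limma adjusted p = 0.00867). Its replicates were close, but 53.1% of its windows occur elsewhere in the genome, and without replicate 1 or replicate 2 labelled Taf4a-/- its adjusted p was 0.0599 and 0.0570. Of the remaining subunits, Cox5a had the highest fold change at 0.28 ± 0.12 (limma adjusted p = 0.127), and Cox7b was at -0.03. Cox4nb, whose product belongs to a complex of the endoplasmic reticulum, starts 178 bases from Cox4i1 and runs the other way. It had 2066 and 1423 against 2530.5 and 2504 counts (0.55 ± 0.19, limma adjusted p = 0.0721), the opposite sign of its neighbour, and without WT replicate 1 it was called higher (adjusted p = 0.0161).

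Complex V had 18 nuclear genes, of which 17 were tested, with a median of -0.10. Of the 17, 2 were called lower (11.8%, against 17.3% of all genes tested) and 0 higher (against 11.3%). Both belong to the F1 part outside the membrane. Atp5e, the epsilon subunit, had 2204 and 2645 counts in WT and 1479 and 1394 in the libraries labelled Taf4a-/- (-0.75 ± 0.14, limma adjusted p = 0.0128). Its call was lost without replicate 2 labelled Taf4a-/- (adjusted p = 0.0654). Atp5c1, the gamma subunit that forms the rotating shaft, had 4679.9 and 5095 against 3800.1 and 3676 (-0.39 ± 0.11, limma adjusted p = 0.0492), and this call was lost under 9 of the other settings, without WT replicate 2 (adjusted p = 0.0784) and without replicate 1 or 2 labelled Taf4a-/- (0.270 and 0.332) among them. The alpha and beta subunits, which form the catalytic hexamer, are the most abundant of the complex in counts. Atp5a1 had 26086 and 24465 against 22041 and 21855 (-0.20 ± 0.14, limma adjusted p = 0.304), and Atp5b was at -0.09. The subunit c of the membrane ring is made from 3 genes with different import sequences. Of these, Atp5g3 gave 98.0% and 97.6% of the family per length in WT and 94.9% and 96.9% in the other group. Atp5g3 had 7133 and 6963 against 5808 and 6227 counts (-0.23 ± 0.11, limma adjusted p = 0.179), while Atp5g1 had 225 and 259 against 432 and 316 (0.61 ± 0.22, limma adjusted p = 0.0843; 0.0298 after quantile normalization). Atp5g2, with 13.2 and 17.7 against 36.2 and 17.7 counts, has 100% of its windows elsewhere and was the lowest tested member per length. Atp5l, a subunit at the dimer interface, had 83.3 and 141 against 76.4 and 65.3 counts with 89.4% of windows elsewhere (-0.61 ± 0.34, limma adjusted p = 0.220).

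**Figure D5:**
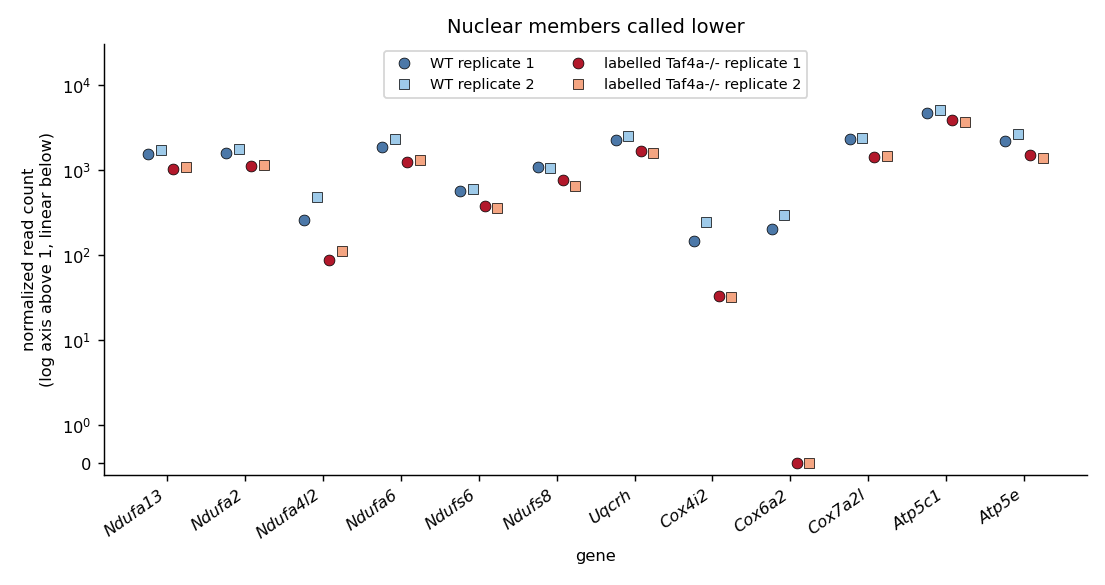
Normalized read count in the 4 libraries of the 12 nuclear members called lower. Both libraries labelled Taf4a-/- lie below both WT libraries in each gene, with folds of 1.31 (Atp5c1) to 5.70 (Cox4i2) beside Cox6a2, which is at 0 there. The 12 were picked by their calls, and 36.6% of all genes tested have the libraries in this order.

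Over all nuclear members tested, both libraries labelled Taf4a-/- lay below both WT libraries in 47 of 83 and above in 13 of 83, while this held for 36.6% and 34.5% of all genes. There was also a difference between the WT libraries in these genes: WT replicate 2 was above WT replicate 1 in 65 of 83 members (51.8% of all genes), by a median of 0.15 on the log2 scale, which is near the median difference between the groups of -0.19. The count called lower was 20 without WT replicate 1, 5 without WT replicate 2, and 4 and 3 without replicates 1 and 2 labelled Taf4a-/-, and the median log2 fold change was -0.29, -0.12, -0.18 and -0.20. Among the WT libraries the summed fibroblast markers also differed, at 429119.9 in replicate 1 and 596378 in replicate 2, and their part in this was not tested. Without the 5 names that are no established subunits, 10 of 78 were called lower and 0 higher, with a median of -0.19. The share called lower was 12.8%, against 17.3% of all genes tested.

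The median exon length of the nuclear members called lower, all annotated transcripts merged, was 962 bases, against 1465 bases in the 71 not called. Of the 12, 5 were longer than 1000 bases, and 2, Atp5c1 with 1908 and Atp5e with 1756 bases, were longer than that median of the others. The 32 members under 1000 bases had a median log2 fold change of -0.28, the 25 of 1000 to 2000 bases -0.24 and the 26 of 2000 bases or more -0.09. Over the 83 members Spearman's rho of exon length and log2 fold change was 0.34 and Pearson's r with log2 length 0.24, while rho was 0.01 over all 16926 genes tested; the members share their libraries and are no independent points. In all genes of under 1000 bases the median was -0.05. Windows that occur elsewhere in the genome tended to go with a low count per length. The 5 nuclear members with at least 50% of such windows, the untested Atp5l2 among them, had a median of 179 counts per kilobase over the 4 libraries. The 67 members with under 10% had a median of 1097. The classes overlapped, with ranges of 0.707 to 1640 (Cox7a2l) and 1.16 to 8801.

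A promoter of 300 bases, 250 before and 50 after the start, was found in RefSeq (GRCm38.p6) for 70 of the 87 nuclear members and for 8 of the 12 called lower. No entry was found for Cox6a2, Cox4i2, Ndufa4l2 and Ndufa2. Motifs known from promoters of respiratory chain genes were searched on both strands, letter for letter. For NRF1, the core GCGCATG occurred in 13 of 70 members, 18.6%, and in 4.41% of all 27025 genes with a promoter. For ETS factors such as GABP, CCGGAAG occurred in 16 (22.9% against 9.93%), for YY1 AAGATGG in 12 (17.1% against 7.28%) and for ERR receptors AAGGTCA in 8 (11.4% against 5.38%). The TATA box TATAAA occurred in 7 (10.0% against 15.7%). Of the 8 members called lower, 3 held CCGGAAG, 1 GCGCATG, 1 AAGATGG, 1 AAGGTCA and 0 TATAAA, which is too few to set against the rest. A match is no evidence of binding. The promoters of 2 of them, Ndufa6 and Atp5e, are shown as examples of such a promoter, and those of the pair Cox8a and Cox8b to show a common and a muscle-type isoform. Capitals mark the motif matches: GCGCATG in Ndufa6 (other strand), CCGGAAG and AAGGTCA in Atp5e (both on the other strand), CCGGAAG in Cox8a (other strand) and TATAAA in Cox8b.
Ndufa6, chr15:82354242-82354541, minus strand: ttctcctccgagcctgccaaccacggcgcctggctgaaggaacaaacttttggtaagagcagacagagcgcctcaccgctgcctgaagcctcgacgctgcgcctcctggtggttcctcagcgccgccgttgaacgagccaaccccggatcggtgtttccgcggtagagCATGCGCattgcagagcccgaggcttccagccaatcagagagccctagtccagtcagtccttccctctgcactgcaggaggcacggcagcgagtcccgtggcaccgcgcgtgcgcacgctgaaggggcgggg
Atp5e, chr2:174464052-174464351, minus strand: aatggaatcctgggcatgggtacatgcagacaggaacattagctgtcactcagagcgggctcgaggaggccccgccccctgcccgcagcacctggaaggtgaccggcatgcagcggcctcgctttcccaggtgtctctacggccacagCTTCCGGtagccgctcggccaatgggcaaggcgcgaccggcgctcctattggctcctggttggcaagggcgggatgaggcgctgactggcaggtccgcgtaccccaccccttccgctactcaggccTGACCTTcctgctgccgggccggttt
Cox8a, chr19:7217567-7217866, minus strand: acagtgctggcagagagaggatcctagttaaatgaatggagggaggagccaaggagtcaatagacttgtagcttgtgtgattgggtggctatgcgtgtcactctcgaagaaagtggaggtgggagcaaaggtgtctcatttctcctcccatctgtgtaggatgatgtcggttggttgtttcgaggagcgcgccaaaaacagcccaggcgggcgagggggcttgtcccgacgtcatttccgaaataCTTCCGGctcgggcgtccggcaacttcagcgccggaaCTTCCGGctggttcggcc
Cox8b, chr7:140900397-140900696, minus strand: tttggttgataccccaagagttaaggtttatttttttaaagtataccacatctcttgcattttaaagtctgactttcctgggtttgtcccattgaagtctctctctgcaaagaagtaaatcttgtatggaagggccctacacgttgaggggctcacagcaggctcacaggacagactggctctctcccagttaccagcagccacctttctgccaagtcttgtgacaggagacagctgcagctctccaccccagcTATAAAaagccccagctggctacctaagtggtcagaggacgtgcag

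The genes that serve the mitochondrial genome were tested in the same fit. Of 26 genes for mitochondrial transcription and genome maintenance, 5 were called higher (19.2%, against 11.3% of all genes) and 0 lower (9 and 0 at an unadjusted p under 0.05, 4 and 0 with voom), with a median of 0.35. Polrmt, the mitochondrial RNA polymerase, had 834 and 631 counts in WT and 1135 and 1108 in the libraries labelled Taf4a-/- (0.63 ± 0.17, limma adjusted p = 0.0382). Peo1, the helicase of mitochondrial DNA replication, had 872 and 768 against 1478 and 1438 (0.83 ± 0.13, limma adjusted p = 0.00823), and Lrpprc, which binds and stabilizes mitochondrial mRNAs, had 3552 and 2720.2 against 5418 and 5151 (0.76 ± 0.15, limma adjusted p = 0.0175). Ssbp1 and Fastkd1 were called higher too, by 0.54 and 0.52, while Tfam, which packages the genome and starts its transcription, was at 0.18 ± 0.12 (limma adjusted p = 0.290). When single libraries were left out, Peo1 stayed called, and the count was 7 without WT replicate 1, 2 without WT replicate 2 and 1 without either library labelled Taf4a-/-.

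Of 14 regulators of respiratory gene expression in the nucleus, 2 were called higher and 4 lower, with a median of -0.26. Of all genes tested, 11.3% were called higher and 17.3% lower. Ppargc1a, the coactivator PGC-1alpha, had 134 and 91.4 counts in WT and 8.81 and 13.3 in the libraries labelled Taf4a-/-, a log2 fold change of -3.24 ± 0.40 (limma adjusted p = 0.00414). Esrrg, a nuclear receptor it works with, had 278 and 198 against 21.5 and 48.7 (-2.82 ± 0.44, limma adjusted p = 0.00808; 0.0575 without WT replicate 2), and Mef2c and Mef2d were lower by -1.59 and -0.42. The related coactivator gene Pprc1 and Gabpb2, a partner of the ETS factor GABP, were higher by 0.73 and 0.88 (limma adjusted p = 0.0304 and 0.0154), and Nrf1 was at 0.40 ± 0.19 (limma adjusted p = 0.166). The list's count was 3 higher and 5 lower without WT replicate 1, 1 and 2 without WT replicate 2, and 1 and 3 or 0 and 3 without replicate 1 or 2 labelled Taf4a-/-.

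Other lists of mitochondrial genes were described in the same fit, where 11.3% of all genes tested were called higher and 17.3% lower. Of 42 assembly factors tested, which build the complexes without staying in them, 2 were called higher (Ndufaf1 and Taco1, by 0.53 and 0.64) and 1 lower (2900010M23Rik, also Uqcc2, -0.58), with a median of 0.08; each of these 3 calls was lost in every fit that left out 1 library. Of 18 genes of the tricarboxylic acid cycle, 0 were called higher and 2 lower, Idh2 (7876 and 7591 against 4052 and 4409.5 counts, -0.87 ± 0.12, limma adjusted p = 0.00507) and Pdha1 (-0.63 ± 0.11, limma adjusted p = 0.0105), with a median of -0.08. The call of Pdha1 was lost without either library labelled Taf4a-/- (adjusted p up to 0.0871). Of 13 genes for electron carriers, nucleotide exchange and creatine kinases, Cyct, the testis form of cytochrome c, was called higher (21.9 and 6.23 against 267 and 97.3 counts) and Ucp2 lower (-0.95), with Cycs, Slc25a4 and Slc25a5 at 0.44, -0.22 and 0.60 and not called. Cyct lost its call without WT replicate 2 (adjusted p = 0.0809). None of the 17 genes for outer membrane, import and chaperones was called in limma or voom (1 higher and 0 lower at an unadjusted p under 0.05), with a median of 0.04, and 3 were called higher and 1 lower without WT replicate 1. Of 76 mitochondrial ribosomal proteins, 4 were called higher and 3 lower, with a median of 0.10; without single libraries the counts were 0 to 4 in each direction. Of the markers of other tissues rich in these genes, 1 of 3 tested for skeletal muscle was called higher (Mylpf) and 0 lower. The median over these 3 was -0.59, on the other side from Mylpf. Myod1, at 0 in both libraries labelled Taf4a-/-, was not called. For brown fat Prdm16 was higher and Dio2 lower, of 2 tested.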

How the data were processed

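Poly-T selected RNA of 4 cultures was made into libraries with an unstranded kit and sequenced. The deposited table holds normalized counts per gene (unit: other): per the submitters' processing notes, the authors used CASAVA 1.8, TopHat 1.3.3 with mm9, HTSeq 0.5.3p1 and DESeq (the study's methods name DESeq 2 instead), and divided the counts by 1 size factor per library. The annotation release, read length and counting mode are not given in the sources used here. Values are written with decimal commas, and divided by the smallest value of a library 100% were whole within 0.01. No column was left unused. The members and gene lists were chosen with earlier results of these data known, so no count over a list is an independent test. By rule the text names all mitochondrial members, in each complex up to 6 called nuclear members, the 2 lowest and 2 highest fold changes and the most and least abundant per length, the Sdh genes, isoform families, and up to 6 called genes of each other list. Of the members so picked, 1 is counted but not reported here.

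From the normalized counts, log2(value + 1) was fitted with limma 3.58.1 in R 4.3.3 (eBayes with a variance trend, prior of 4.17 degrees of freedom), without a replicate block, for genes with a mean of at least 10, with Benjamini-Hochberg adjustment over all of them. Fold changes on this scale understate the change of low genes. The procedure was tested on simulated data. The floor for folds against 0 was 3 reads per library (3.13 normalized counts, the mean over the libraries labelled Taf4a-/-), which covers counting error only. Exon lengths come from GENCODE M1 on NCBIM37, and since they merge all transcripts, levels per length are approximate. Each 50-base window of a member's transcripts was looked up in the genome on both strands, and copies of mitochondrial genes were aligned with blastn 2.17.0. Promoters were matched by symbol or synonym. Group sums were compared with an exact permutation test. Alternatives were other pseudocounts (0.5 and 10), filters (none and 50), scalings (equal totals, equal totals of nuclear genes, quantile), no variance trend, voom on the recovered reads, other thresholds, a replicate block and leaving out each library; with 1 library left in a group it is assumed to vary like the other group.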

Additional observations from a re-analysis of the deposited data

How the results depend on the processing

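The counts of calls depended on the test more than the direction did. Without the variance trend 3 nuclear members were called lower and 0 mitochondrial ones higher, where all genes gave 856 higher and 1741 lower. At an adjusted p under 0.01 these counts were 3 and 0. At 0.1 they were 22 lower with 2 nuclear members higher, Cox4nb, which is no established subunit, and Atp5g1. Of the mitochondrial members, mt-Nd1 and mt-Nd2 passed 0.1 beside the 4 called. The counts over all genes at these thresholds are not given here, so the member counts cannot be set against them. Quantile normalization gave 1 nuclear member called higher, where all genes gave 2625 higher and 2459 lower. With single libraries left out, nuclear members called lower ranged from 3 to 20 and called higher from 0 to 1, mitochondrial members called higher from 0 to 6, the nuclear median from -0.29 to -0.12, the mitochondrial median from 0.62 to 1.18, the difference of medians from 0.91 to 1.31 and the ratio of the mitochondrial shares from 1.49 to 2.04, while all genes called ranged from 624 to 2476 higher and from 1222 to 3038 lower. Under the other scalings, filters and pseudocounts and with voom, nuclear members called lower numbered 11 or 12 and mitochondrial members called higher 4 to 6. Over all settings, the sign turned in at least 1 of them for 18 of the 83 nuclear members tested, none of them called, and for 0 mitochondrial ones. Among the members picked for naming these were Cox7a1 (0.036 with quantile normalization; -0.64 to 0.0090 with single libraries left out), Cox7b (0.031 with equal totals, 0.042 with equal totals of nuclear genes; -0.15 to 0.093), Ndufa4 (-0.35 to 0.028) and Ndufv2 (-0.20 to 0.011). The cause was not tested.

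The replicate numbers do not pair the libraries: deviations of libraries with the same number had a correlation of 0.01. With the replicate block 13 nuclear members were called lower and 4 mitochondrial ones higher, with 1536 and 2657 calls over all genes. Count models (edgeR, DESeq2) and TMM scaling were planned and not run. With 2 libraries a group the exact test of a single value cannot pass 0.05. The limma p-values rest on the spread within both genotypes, together with a variance prior drawn from all genes tested. This prior held 4.17 of the 6.17 degrees of freedom.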
